A study of Mus musculus with 3 samples.

Results

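The granzymes Gzmc, Gzmd, Gzme, Gzmf and Gzmg and the mast cell protease gene Mcpt8 are neighbouring serine protease genes of mouse chromosome 14. They were taken by name from a deposited table of 56833 genes, in which all 6 had a row. They were chosen by their deposited normalized counts in these same 3 libraries, so their levels and ratios are a description and nothing is tested on them. Their counts come from bulk RNA sequencing of poly(A)-selected, stranded libraries of mouse ankle synovium, the tissue that lines the joint. All 3 groups share the genotype Efhd1CreER; Ai9, in which a Cre recombinase driven by the Efhd1 gene switches on the red reporter tdTomato, and in all of them tdTomato-positive cells were sorted before culture. The labels call these cells telocytes, which are interstitial cells with long thin processes. They were grown for 24 h on collagen-coated plates, soft at 0.2 kPa, intermediate at 8 kPa and stiff at 64 kPa, with 1 library each. The age and number of the animals are not given in the sources used here. The study asked how matrix stiffness acts on these cells.

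Granzymes are proteases that cytotoxic lymphocytes store in granules and release into target cells together with the pore-forming protein perforin. Gzma and Gzmb are the well-studied members. Gzmc to Gzmg form a rodent group that lies beside Gzmb and is known from activated lymphocytes and from natural killer cells of the pregnant uterus. Mcpt8, mouse mast cell protease 8, is widely used as a marker of basophils, a rare blood granulocyte. Cathepsin C, the product of Ctsc, activates such proteases, serglycin (Srgn) holds them in the granule, and the serpin Serpinb9 blocks granzyme B.

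The soft library totals 25487064 reads, the intermediate one 28081600 and the stiff one 26474862, and values in threes below keep that order. Normalized counts are the deposited values, in which a read is worth 1.03, 0.943 and 1.03. Intervals are exact 95% intervals for counting error only: Poisson for a level and Clopper-Pearson for a ratio. They do not hold the variation between cultures, which 1 library per group cannot show, so differences between cultures and between stiffness levels cannot be told apart. Efhd1, the driver of the reporter, had 10, 5 and 3 reads, while the reporter tdTomato had 798, 1265 and 2602 reads. Of other genes used to mark telocytes, Cd34 had 229, 257 and 310 reads, Pdgfra 5739, 6681 and 4991, Foxl1 232, 247 and 181, and Kit 41, 41 and 44. All 10 fibroblast genes, among them Col1a1 and Vim, had reads in each library.

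Gzme and Mcpt8 were well covered, Gzmd was at a middle level, Gzmc was rare, and Gzmf and Gzmg had no read in any library. Of the 6 genes, 4 had a read and 3 (Gzme, Mcpt8 and Gzmd) averaged 50 normalized counts or more, the minimum used for counts over all genes. Those 3 stood highest in the soft library. Their counting intervals lay wholly below equality in both ratios to it, as did those of 13.5% of the 11873 genes with that mean in intermediate against soft and 25.9% in stiff against soft; nothing is read from this, since the genes were chosen by these counts. Added together, the 6 genes stood at 0.645 times the soft value in the intermediate and 0.684 times it in the stiff library.

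Gzme, granzyme E, stood at 1343, 882 and 947 normalized counts, from 1310, 936 and 923 reads. The soft library was the high one, and the other libraries lay close together. The intermediate value was 0.657 times the soft value, with a counting interval from 0.604 to 0.715, and the stiff value was 0.705 times it, with an interval from 0.647 to 0.767. Between stiff and intermediate the log2 ratio was 0.10, with an interval from -0.03 to 0.23 that includes 0.

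Mcpt8 stood at 1134, 760 and 742 normalized counts, from 1106, 806 and 724 reads. The soft library was again the high one, with the intermediate and the stiff library close to each other. Its intermediate value was 0.67 times the soft value, with an interval from 0.611 to 0.734, and its stiff value was 0.655 times it, with an interval from 0.595 to 0.72. The stiff and intermediate libraries differed by a log2 ratio of -0.03, with an interval from -0.18 to 0.11.

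Gzmd, granzyme D, stood at 303, 150.8 and 199 normalized counts, from 296, 160 and 194 reads. The intermediate library was lowest, and all 3 counting intervals of its pairwise ratios lay clear of equality. The intermediate value was 0.497 times the soft value (interval 0.407 to 0.604), the stiff value was 0.656 times it (interval 0.544 to 0.788), and the stiff value was 1.32 times the intermediate one (interval 1.06 to 1.64). Between stiff and intermediate, 26.3% of genes had an interval wholly above equality. At a log2 ratio of -1 or lower between intermediate and soft, Gzmd was the only gene among 11873 with a mean of at least 50, so that the background of 0.00842% is Gzmd itself, by whose values it was chosen. It passed narrowly: its log2 ratio was -0.96 both with a pseudocount of 10 and with the length and GC trend subtracted, which ends the call.

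Gzmc, granzyme C, had 21, 15 and 27 reads. Its highest count was in the stiff library, while the 3 well-covered genes were highest in the soft one. Counting error covers both ratios to the soft library: the interval of the log2 ratio ran from -1.67 to 0.42 for intermediate and from -0.51 to 1.26 for stiff. Between stiff and intermediate the log2 ratio was 0.92, with an interval from 0.01 to 1.99.

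Gzmf and Gzmg, granzymes F and G, were at 0 reads in all 3 libraries. The floor set for a gene with no read was 3 reads, or 3.08, 2.83 and 3.08 normalized counts. The exact interval is wider and ends at 3.69 reads. No fold is given for them.

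**Figure D1:**
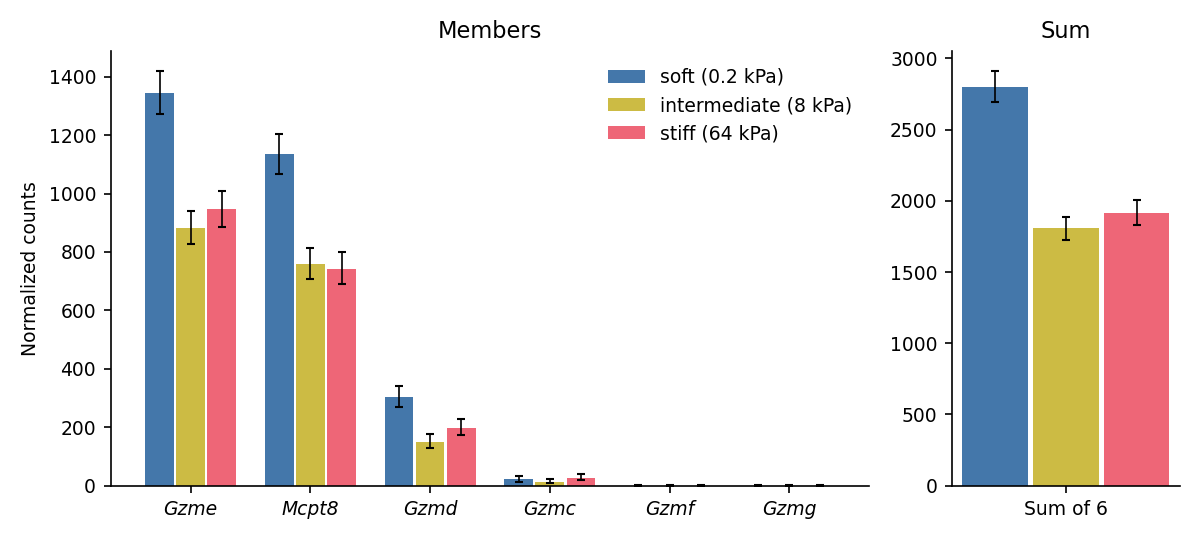
Deposited normalized counts of the 6 genes and of their sum on soft, intermediate and stiff plates; bars are single libraries and error bars are exact 95% Poisson intervals, except that a gene with no read has a bar up to the floor of 3 reads in place of its interval. Gzme, Mcpt8, Gzmd and the sum are highest in the soft library, Gzmc is below 30 normalized counts in all 3, and Gzmf and Gzmg are at 0.

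Summed over the 6 genes, the reads were 2733, 1917 and 1868. That is 2802, 1807 and 1916 normalized counts, or 107.2, 68.3 and 70.6 RPM (reads scaled to the library total). The log2 ratio of the sum was -0.63 between intermediate and soft, with an interval from -0.72 to -0.55, and -0.55 between stiff and soft, with an interval from -0.63 to -0.46. Between stiff and intermediate it was 0.08, with an interval from -0.01 to 0.18. The 2 ratios to the soft library share that library. Without Mcpt8, the 5 granzymes summed to 1668, 1047 and 1173 normalized counts, and their stiff to intermediate log2 ratio of 0.16 had an interval from 0.04 to 0.28, which no longer includes 0.

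Gzme took 47.9%, 48.8% and 49.4% of the summed reads, and Mcpt8 took 40.5%, 42.0% and 38.8%. The exact binomial intervals of the 3 libraries overlapped for both. Gzmd took 10.8% (interval 9.69% to 12.1%), 8.35% (7.15% to 9.68%) and 10.4% (9.04% to 11.9%), lowest in the intermediate library. Its soft and intermediate intervals narrowly did not overlap. Gzmc took 0.768%, 0.782% and 1.45%, with overlapping intervals. Of the reads given to Gzmd or Gzme, the closest pair, Gzmd had 18.4% in the soft library (interval 16.6% to 20.4%), 14.6% in the intermediate (12.6% to 16.8%) and 17.4% in the stiff library (15.2% to 19.7%), and these intervals overlap. Overlap of separate intervals does not show that shares were equal.

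Levels were compared between genes as RPKM, reads scaled to the canonical transcript's length in kilobases and to the library total. On that scale Gzme stood at 56.1, 36.4 and 38.1 RPKM. Mcpt8 stood at 51.9, 34.3 and 32.7, so that the ratio of Gzme to Mcpt8 was between 1.06 and 1.16 in the 3 libraries. Gzmd stood at 12.05, 5.91 and 7.6, and Gzmc at 0.881, 0.571 and 1.09. As point values, the order Gzme, Mcpt8, Gzmd, Gzmc held in each library. No counting interval was made for the small step from Gzme to Mcpt8, and lengths were not limited to unique sequence. Among genes with a read, the per-kilobase level of Gzme lay at percentile 93.5, 90.3 and 90.7, and that of Mcpt8 at 92.9, 89.8 and 89.4.

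The 6 genes lie on the minus strand of chromosome 14, each with 5 exons in its canonical transcript in the GENCODE vM39 annotation of GRCm39. Mcpt8 is at 56319623 to 56322730, Gzme at 56355083 to 56358082, Gzmd at 56367013 to 56370065, Gzmg at 56394039 to 56397036, Gzmf at 56442720 to 56448874 and Gzmc at 56468857 to 56479211. They are part of an array of 15 protein-coding protease genes that runs over 321 kb from Cma1 to Gzmb. The order along the chromosome is Cma1, Cma2, Mcpt1, Mcpt9, Mcpt2, Mcpt4, Mcpt8, Ctsg, Gzme, Gzmd, Gzmg, Gzmn, Gzmf, Gzmc and Gzmb. Reads were uneven over this array. The 6 genes took 97.6%, 96.1% and 97.3% of its reads, nearly all of them at Gzme, Mcpt8 and Gzmd.

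Between Mcpt8 and Gzme lies Ctsg, cathepsin G of neutrophil granules, which had 2, 5 and 1 reads. Directly beyond Gzmd lie Gzmg and Gzmn, both at 0 reads. Gzmb, the main apoptosis-inducing granzyme, had 0, 4 and 0 reads. Of the granzymes outside the array, Gzma and Gzmk had no read and Gzmm had 7, 7 and 5. Mcpt1, an intestinal mast cell chymase, was the only other gene of the array whose mean passed 50. It stood at 59.5, 58.4 and 33.8 normalized counts, with a stiff to soft log2 ratio of -0.80 (interval -1.48 to -0.17) and an intermediate to soft log2 ratio of -0.02 (interval -0.56 to 0.52). The chymase genes Cma1 and Cma2 had at most 6 reads, Mcpt4 at most 2, Mcpt9 at most 10 and Mcpt2 none.

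**Figure D2:**
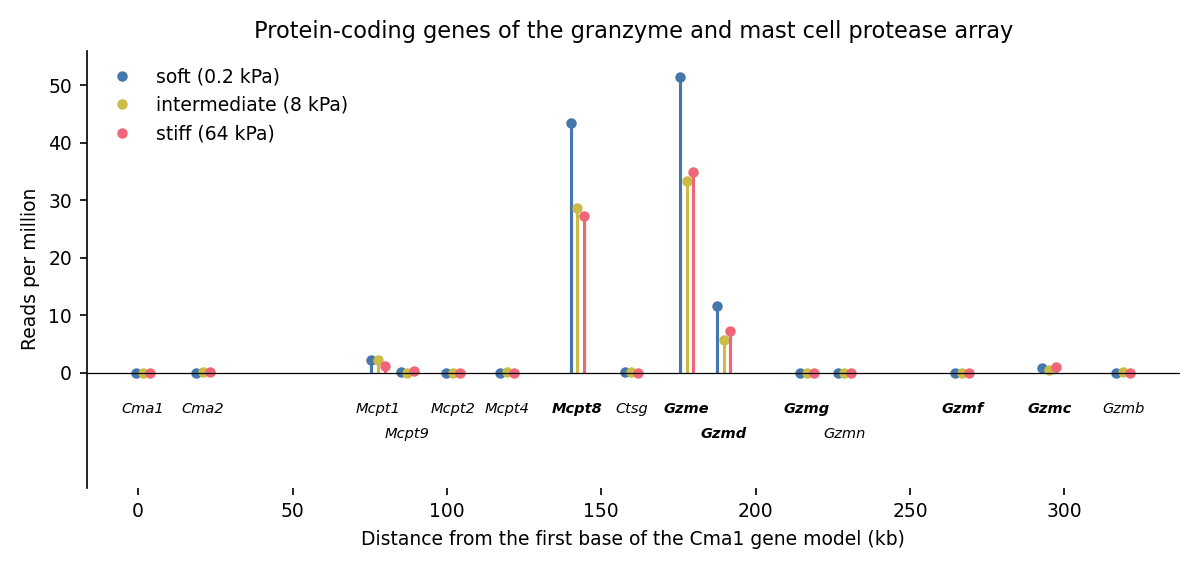
RPM, reads scaled to the library total, of the 15 protein-coding genes of the array against distance in kb from the first base of the Cma1 gene model, with the 6 genes of interest in bold; each point is 1 library. Signal stands at Mcpt8, Gzme and Gzmd, with Gzme at 51.4 RPM in the soft library, and nearly none at the genes around and between them.

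The 5 nearest protein-coding genes with a mean of at least 50 were taken on each side: Ripk3, Nfatc4, Nynrin, Khnyn and Sdr39u1 before it, and Parp4, Mphosph8, Pspc1, Zmym5 and Zmym2 after it. Their intermediate to soft log2 ratios ran from -0.26 (Sdr39u1) to 0.39 (Parp4), with a median of -0.03. Their stiff to soft log2 ratios ran from -0.53 (Nfatc4, a calcium-regulated transcription factor) to 0.78 (Parp4), with a median of 0.02. In intermediate against soft, the sum of the 6 protease genes, at -0.63, lay below all 10. In stiff against soft, the sum, at -0.55, could not be told from Nfatc4 (interval -0.59 to -0.46) or Sdr39u1 (-0.50, interval -0.76 to -0.23) within counting error.

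Because the granzymes resemble each other, their transcripts were compared. The canonical transcripts of Gzmd and Gzme were identical at 868 of 916 aligned bases (94.8%), gaps left out. Identity between any 2 of the 5 granzymes ran from 75.7%, for Gzmc and Gzme, to 94.8%. Between a granzyme and Mcpt8 it ran from 64.6% to 67.1%. Every window of 75 bases in these transcripts was then looked up, exact matches only, in the GRCm39 genome and in the transcripts of all other genes. The window occurred nowhere else for 100% of the positions in Mcpt8 and Gzmc, 94.3% in Gzmd, 92.8% in Gzme, 93.2% in Gzmg and 87.5% in Gzmf. With windows of 50 bases the shares were 76.8% for Gzmd and 74.9% for Gzme, and with 100 bases 99.8% and 100%. The read length, the strand setting of the counting and the handling of reads that align to several places are not given in the sources used here. Mcpt8 shared no exact window of 50 bases with any other place. At 75 bases the repeated windows of Gzmf were shared with the long noncoding RNA genes Gm4022, which overlaps it on the other strand and was also at 0, and Gm63572, which was not analysed here. At 50 bases 66 of its windows were shared with other granzymes of the group. The counts of 0 for Gzmf and Gzmg were made over transcripts of which 739 of 845 and 778 of 835 windows of 75 bases are unique.

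The promoters are shown because the 3 well-covered genes were all highest in the soft library while Gzmf and Gzmg, whose promoters resemble that of Gzme (87.8% and 89.4% identity), had no read. They come from RefSeq with its GRCm38.p6 table, where all 6 genes matched by symbol. Each window, from 250 bases before the start site to 50 after it, was found as 1 exact match on chromosome 14 of GRCm39, whose coordinates are given. Over the whole window the promoters of Gzmd and Gzme were identical at 281 of 299 aligned bases (94.0%). The granzymes ranged from 86.1% to 94.0% identity with each other and from 59.1% to 67.6% with Mcpt8. For Gzme all 250 bases before the start site are shown, and for Mcpt8 the 174 bases that lie outside its GENCODE gene model, since that model begins further upstream. They run 5′ to 3′ on the minus strand, with ACCACA, its reverse complement TGTGGT and TTTAAAA in capitals:
Gzme (chr14:56358083-56358332): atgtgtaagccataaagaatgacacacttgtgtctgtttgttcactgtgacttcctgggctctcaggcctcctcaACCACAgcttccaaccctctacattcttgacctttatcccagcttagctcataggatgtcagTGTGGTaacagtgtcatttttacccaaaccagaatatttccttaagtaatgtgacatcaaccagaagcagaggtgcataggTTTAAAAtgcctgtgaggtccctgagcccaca
Mcpt8 (chr14:56322731-56322904): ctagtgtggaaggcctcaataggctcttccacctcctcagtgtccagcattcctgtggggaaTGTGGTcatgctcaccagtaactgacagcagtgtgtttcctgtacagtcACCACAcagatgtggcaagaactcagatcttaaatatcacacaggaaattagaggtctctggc

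ACCACA is a core of sites bound by RUNX factors, which are known regulators of cytotoxic genes. On either strand it was present at 2 places in each of the 6 promoters, against at least 1 place in 16.8% of 32851 RefSeq promoters of the same length. TTTAAAA, an A- and T-rich run of the kind found at TATA boxes, was in 5 of the 6 promoters, all but that of Gzmc, and in 8.74% of all promoters. It began 32 bases before the start site in Gzme, 31 in Gzmd and 50 in Mcpt8, where it falls inside the GENCODE gene model. Letters of a STAT site (TTCNNNGAA) and of an AP-1 site (TGANTCA), searched on both strands, were in none of the 6 windows and in 8.3% and 7.81% of all promoters. GGAATG, the core of TEAD sites, was in that of Mcpt8, at 2 places, and in no granzyme window, with 14.7% of all promoters holding it. A GGAATG match of Mcpt8 shares 2 bases with TGTGGT. A match is a match of letters only, and these motifs were chosen with the sequences and the levels known.

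The 5 granzyme promoters share an identical run of 20 bases, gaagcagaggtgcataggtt, whose end lies in TTTAAAA where that is present. The 68 bases around it are shown for the covered genes Gzme and Gzmd, for Gzmg and Gzmf, which had no read, and for the rare Gzmc, with GRCm39 coordinates on the minus strand and the 8 bases at the place of TGACGTCA, the CRE sequence bound by CREB and ATF factors, in capitals:
Gzme (chr14:56358095-56358162): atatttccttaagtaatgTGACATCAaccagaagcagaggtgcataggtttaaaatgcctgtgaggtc
Gzmd (chr14:56370062-56370129): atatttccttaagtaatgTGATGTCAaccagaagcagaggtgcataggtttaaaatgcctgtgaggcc
Gzmg (chr14:56397064-56397131): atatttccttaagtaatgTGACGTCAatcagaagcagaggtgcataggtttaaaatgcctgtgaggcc
Gzmf (chr14:56448897-56448964): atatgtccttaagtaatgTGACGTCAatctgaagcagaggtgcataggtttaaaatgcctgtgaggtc
Gzmc (chr14:56472122-56472189): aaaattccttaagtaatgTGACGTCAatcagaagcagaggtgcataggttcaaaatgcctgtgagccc

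The RefSeq start site of Gzmc, and so its whole window, lies inside the GENCODE gene model, which begins further upstream, at 56479211. TGACGTCA stands complete in Gzmc, Gzmf and Gzmg, the rare gene and those with no read. Counted from 1 at its first base, Gzmd carries C4T and Gzme carries G5A. It is in 1.79% of all promoters and in neither Gzmd, Gzme nor Mcpt8. This difference was noticed after the counts were known, and its part in the levels was not tested.

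Since these proteases mark blood cells, the libraries were searched for other genes of such cells. Over the whole table, 33275 of 56833 genes had no read in any library, so the number of marker genes at 0 is a description and is not read as absence of a cell type. Of 22 genes of cytotoxic lymphocytes, 11 had no read in any library: Cd3e, Cd3d and Cd3g of the T cell receptor complex, the T cell coreceptor genes Cd4 and Cd8b1, the natural killer receptor genes Ncr1 and Klrd1, the perforin gene Prf1, Gzma, Tbx21 and Xcl1. A further 7 had at most 3 reads in each library, and Gzmb had 0, 4 and 0. The T cell receptor constant genes Trac (7, 19 and 29 reads) and Trbc2 (76, 105 and 41 reads) and the chemokine Ccl5 (855, 1129 and 1258 reads), which other cells also make, carried nearly all of the list's 939, 1266 and 1329 reads. Trbc2 had a stiff to intermediate log2 ratio of -1.22, where 1.25% of all 11873 genes were past 1 in size. Its stiff to soft log2 ratio was -0.87 (interval -1.47 to -0.32), and that of Ccl5 was 0.56. Gzme alone had 1310, 936 and 923 reads, more than the list in the soft library and fewer in the other libraries.

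Among 10 basophil genes 5 were at 0. Fcer1a and Ms4a2, subunits of the high-affinity IgE receptor, the basophil protease Prss34, Cpa3 and Il4 were those with no read in any library. Cd200r3 had 0, 1 and 2 reads and Hdc, the histamine-forming enzyme, 4, 4 and 2. The rest of the list's 1815, 1939 and 1869 reads came from Gata2, Il3ra and Itga2, which are not restricted to basophils.

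Of 12 mast cell genes 7 were at 0. The tryptases Tpsb2 and Tpsab1, the receptors Mrgprb1 and Mrgprb2, and Cpa3, Fcer1a and Ms4a2 had no read. Kit had 41, 41 and 44 reads, and Gata2 had 693, 816 and 738. Among 12 genes of trophoblast, the placental cell layer, 6 had no read, and Prl2c2 (938, 866 and 635 reads) and Prl2c3 (215, 204 and 207 reads), of the proliferin group, carried nearly all the signal. The stiff to soft log2 ratio of Prl2c2 was -0.56.

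**Figure D3:**
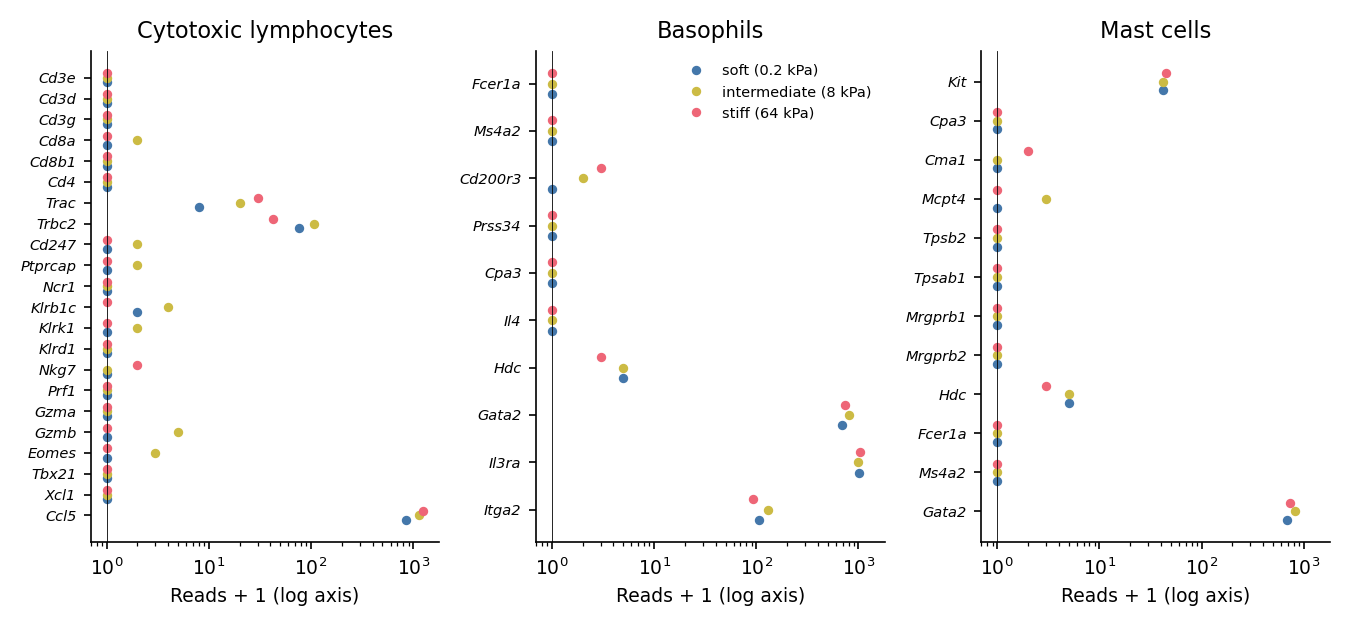
Reads plus 1, on a log axis, of marker genes of cytotoxic lymphocytes, basophils and mast cells in each library; the vertical line marks 0 reads. Many markers lie on the line in all 3 libraries, and Ccl5, Gata2 and Il3ra, which other cells share, are the most abundant genes of these lists.

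Macrophage genes had many reads and were highest in the stiff library. All 13 had reads in each library, and their sum was 1203, 1460 and 2477 RPM. Of these 13, 9 (Lyz2, Cd68, Csf1r, Adgre1, C1qa, C1qb, C1qc, Mrc1 and Ptprc) reached a log2 ratio of 1 between stiff and soft, where 3.22% of all 11873 genes did. Lyz2, the lysozyme of macrophages and the most abundant of them, stood at 18362, 21482 and 39173 normalized counts. The sum of the 6 protease genes was highest in the soft library, where the macrophage sum was lowest. The part of cell make-up in the levels of the protease genes was not tested. In bulk RNA, fewer cells of a type and less RNA per cell cannot be told apart.

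Partners of granzymes in the granule were present apart from perforin and Nkg7. Of 13 granule genes matched, led by Lamp1, M6pr and Ctsh, 11 had a mean of at least 50, and 1 of them reached a log2 ratio of 1 in size between stiff and soft, against 3.6% of all genes: Unc13d, a regulator of granule release, at 27.7, 39.6 and 84.1 normalized counts. Srgn stood at 1264, 1534 and 1937 and Ctsc at 1237, 1392 and 1958, so both were highest in the stiff library, opposite to Gzme, Gzmd and Mcpt8. Nkg7, a granule protein of killer cells, had 1 read in all. Over the 11 genes the median log2 ratio was 0.17 for intermediate to soft and 0.23 for stiff to soft, beside 0.01 and 0.00 over all 11873 genes.

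Serpins listed here as known or possible granzyme inhibitors had reads too. Of 13, 7 had a mean of at least 50, and their median log2 ratio was 0.14 for intermediate to soft and 0.05 for stiff to soft. Serpinb6a, a broad intracellular inhibitor, was the most abundant, with 16998, 17973 and 16302 reads, and Serpinb9, the inhibitor of granzyme B, had 970, 1094 and 953. Serpina3n had 1444, 1757 and 1492. Serpina3f stood at 62.5, 125.4 and 54.4 normalized counts, with a stiff to intermediate log2 ratio of -1.19, and was the only one of those 7 past 1 in size in any comparison, against a background of 1.25% of genes.

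Receptors and factors that induce granzymes in lymphocytes were partly present. Il2ra, the interleukin-2 receptor alpha chain, and the transcription factors Tbx21 and Zfp683 had no read, and Il2rb, the chain shared by the interleukin-2 and interleukin-15 receptors, had 11, 4 and 8 reads. Jak1, Stat3 and Runx1 were the most abundant, with 6724, 4218 and 1784 reads in the soft library. None of the 12 genes with a mean of at least 50 reached a log2 ratio of 1 in size in any comparison, where 0.168% of all genes did in intermediate against soft, 3.6% in stiff against soft and 1.25% in stiff against intermediate. The median log2 ratio of these 12 was 0.18 for intermediate to soft and 0.34 for stiff to soft. In stiff against soft, 11 of them lay above 0 and 1 below. Runx3, under that mean, had 20, 42 and 61 reads and a stiff to soft log2 ratio of 1.56 (interval 0.86 to 2.42). Il7r, the interleukin-7 receptor, stood at 321, 509 and 586 normalized counts, lowest in the soft library, where Gzme, Mcpt8 and Gzmd were highest.

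Set among all 11873 genes with a mean of at least 50, Gzme, Mcpt8 and Gzmd lay in a thinly filled corner. A log2 ratio of -0.5 or lower between intermediate and soft was reached by 0.657% of the genes, and between stiff and soft by 3.77%. Both together were reached by 27 genes (0.227%), among them Gzme, Gzmd and Mcpt8. Gzme passed narrowly, at -0.50 between stiff and soft, and with the length and GC trend subtracted Gzme (-0.40) and Mcpt8 (-0.49) no longer reached -0.5 there. Since the 3 genes were chosen with these ratios known, nothing is read from their place. In stiff against intermediate, 5.42% of genes had a log2 ratio of 0.5 or higher, and none of the 3 did.

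The 300 genes nearest to Gzme in transcript length and GC content, which were 634 to 1334 bases long, had a median log2 ratio of -0.05 for intermediate to soft and -0.10 for stiff to soft. With these medians subtracted, the log2 ratios of Gzme were -0.55 and -0.40. For Mcpt8 the nearest genes had medians of -0.05 and -0.12, and its ratios after subtraction were -0.53 and -0.49. For Gzmd the ratios after subtraction were -0.96 and -0.50. All 3 genes stayed lower in both other libraries than in the soft one.

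**Figure D4:**
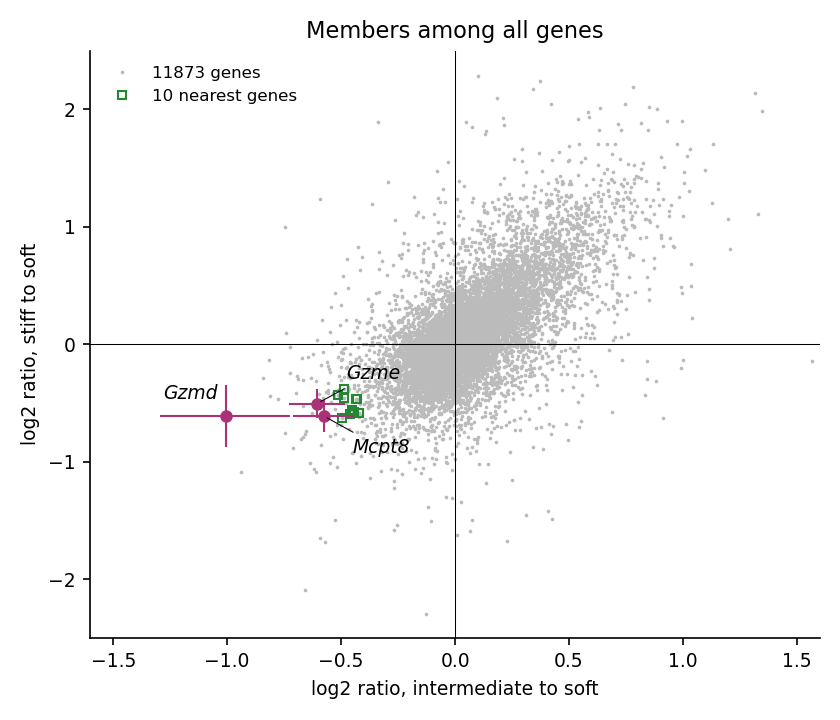
Log2 ratio of stiff to soft against log2 ratio of intermediate to soft for 11873 genes (grey points), with Gzmd, Gzme and Mcpt8 and their exact 95% counting intervals, and the 10 genes nearest to the summed 6 genes as squares; both axes share the soft library. Of these genes, 5 lie outside the axes. Gzme and Mcpt8 lie close together, at -0.61 and -0.58 for intermediate to soft and at -0.50 and -0.61 for stiff to soft, and Gzmd lies further left, at 0.497 times the soft value.

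The genes closest to the summed pattern were found by Euclidean distance in the pair of log2 ratios to the soft library, over 3 libraries and among 10617 named genes with a mean of at least 100, the 6 genes themselves left out. Of the nearest 10, at distances from 0.155 to 0.223, 9 were in order Gfra4, Zfp54, Cep83os, Platr25, Gins3, Tagap1, Tmem121, Hmgcll1 and Zfp839. None of these 9 is a protease or a granule gene. Gfra4, a receptor of the GDNF family, stood at 369, 261 and 239 normalized counts, and Gins3, of the replication complex GINS, at 219, 161.2 and 146.6. In the soft library these 9 had from 130 (Platr25) to 904 (Hmgcll1) reads. With a minimum mean of 50, only 3 of the 10 were among the nearest, which are Gfra4, Zfp54 and Cep83os.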

How the data were processed

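Libraries were made with a stranded poly(A) kit, per the labels' protocols. The signal values that the authors deposited are read counts per gene divided by a size factor for each library. bcl2fastq 2.20.0, STAR 2.7.9a, featureCounts of Subread 2.0.1, DESeq2 1.34.0 and GRCm39 are named in the submitters' processing notes. The gene annotation is not given in the sources used here. The 3 deposited tables were identical, and columns were assigned by sample title. In each column 100% of values were whole multiples (within 0.01) of the smallest positive value, so reads were recovered by division.

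With 1 library per group, no test and no p-value was made. Log2 ratios used a pseudocount of 1, and folds and all intervals none. Gene models were GENCODE vM39, matched by symbol. All 6 genes are given. Other named genes follow fixed rules: genes of the array and its flanks by position, listed genes past a log2 ratio of 1, most abundant or at 0 reads, and the 10 nearest in pattern, leaving out unnamed models; 1 of the 10 is not reported here. Further listed genes, and the motifs, were named after their values were seen. The members and lists were chosen with earlier results of these data known. The counting of genes past a log2 ratio of 1 was also run on simulated Poisson reads. These held no variation between cultures, so that run cannot check the differences described here. Tools were Biopython 1.88 (alignments), scipy 1.17.1 (intervals), pandas 2.3.3, numpy 2.4.6, matplotlib 3.10.9 and Python 3.11.15. Protein sequences were not used here.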

Additional observations from a re-analysis of the deposited data

How the results depend on the processing

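Of 114 recomputed ratios of the 4 genes with reads and of their sum, 113 stayed within the main counting interval. The exception was the sum between stiff and soft, -0.44 after the trend with length and GC content was subtracted. None changed from a called direction to the other. All were recomputed with pseudocounts of 0.1 and 10 and with 4 other scalings. The length and GC trend was subtracted for all but Gzmc. Removal of Mcpt8, Gzmd or Gzme and values per kilobase concerned the sum only. The largest shift from another scaling was -0.058 in log2. That is small beside the counting intervals, so few of these changes could have left them. No paired analysis was possible because each group has 1 library. Leaving out a replicate was not possible either. Counts over all genes depended on thresholds by construction. At a log2 ratio of at least 1 in size, the counts for intermediate against soft, stiff against soft and stiff against intermediate were 20, 428 and 148. They were 215, 822 and 451 with a minimum mean of 10, 8, 238 and 72 with 200, and 3646, 5827 and 3904 without a filter. With a log2 ratio of at least 0.5 they were 546, 1850 and 1050, and with at least 2 they were 1, 17 and 8. A pseudocount of 10 gave 10 for intermediate against soft. At 15 to 27 reads, depth limits any statement on Gzmc.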
